A study of Xiphophorus maculatus with 24 samples.

Results

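The extracellular matrix and integrin genes of platyfish skin were described over the day and between 2 collections of libraries. A gene was included if its symbol in the supplementary gene tables of the study began with col and a digit, lama, lamb, lamc, itga, itgb, mmp, timp, adamts or fbln. This rule gave 81 of the 24209 genes in the count table. They were 15 ADAMTS proteases, 14 matrix metalloproteinases, 12 integrin alpha chains, 6 integrin beta chains, 8 basement membrane collagens and laminins, 6 fibrillar collagens, 9 other collagens, 3 fibulins and 3 tissue inhibitors of metalloproteinases. The last 5 share only the letters of the name: COL4A3BP (a ceramide transporter), itgb1bp1 and ITGB1BP2 (proteins that bind the integrin beta 1 tail), ITGBL1 (a secreted protein with integrin-like repeats) and adamtsl2 (a matrix protein without protease activity).

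The skin libraries came from mature males of *Xiphophorus maculatus* Jp 163 A, an inbred line kept by sibling mating, which received no treatment and lived under 13 h of light and 11 h of dark. By the dates and ages in the library names, 16 libraries formed a first collection, from fish of 24 months, with 2 fish at each of 8 time points, every 3 h from 8 am to 5 am. A second collection, dated 2 years later, held 8 libraries from fish of 12 months, with 2 fish at each of 8 am, 2 pm, 8 pm and 2 am. Lights came on 0.5 h before the 8 am samples and went off 0.5 h after the 8 pm samples, and fitted times below are given as Zt, the number of hours after lights on. Library year, fish age and preparation changed together and cannot be told apart in any comparison of collections. Each library was made from whole dissected skin, so that fewer cells of a type and less RNA per cell cannot be told apart. Total counts ranged from 25736825 to 36066368 in the first collection and from 25927255 to 29385115 in the second collection.

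The extracellular matrix of skin has several layers. Laminins and type IV collagen form the basement membrane, the sheet on which the epidermis rests. Fibrillar collagens, with type I the most abundant, form the fibres of the dermis below, and other collagens such as type VI and type XIV link or decorate these fibres. Integrins are receptors made of an alpha and a beta chain that hold cells to this matrix. Metalloproteinases cut matrix proteins, ADAMTS enzymes cut proteoglycans or trim procollagens, and the tissue inhibitors block many of these enzymes.

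One library stood apart before any comparison. At 5 pm of the first collection, 44 of the 81 genes differed over 2-fold between the fish, against 0 to 25 genes at any other time point. This count was not made over all genes. Over all tested genes the median difference of the pair was 0.755 log2 units, against 0.123 to 0.366 at the other time points. The pair thus differed well beyond the matrix genes. The fish lettered A had 19609 genes above 0 counts and its partner 20999. In the fish lettered A the integrin chain itgav had 2.95 counts per 1000000 counts of the library (CPM) and in the other fish 160, and itgb4 had 164 against 1499. The summed red blood cell markers were 3668 CPM in this library and 207 to 1643 CPM in the other 15 first-collection libraries. The part of blood in its values was not tested. Since the comparison of collections used only the 4 shared time points, it did not include this library. It did include the first-collection pair at 2 am, where 25 genes differed over 2-fold. There col1a2 had 233 CPM in the fish lettered D and 2102 CPM in its partner. Without this D fish the log2 fold change of col1a2 between collections was 1.65, the lowest with any single library left out. The standard deviation between the 2 fish of a shared time point had a median of 0.350 log2 units over the 81 genes in the first collection and 0.154 in the second collection. Over all tested genes the medians were 0.233 and 0.141.

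In CPM, 20 of the 81 genes had a mean over 100 across the 24 libraries, 37 had a mean between 10 and 100, and 24 were lower. Of the 81 genes, 75 exceeded 1 CPM at 2 or more of the 8 time points of the first collection. The 8 highest mean CPM belonged to col1a2 (2227), itgb4 (1478), col6a1 (529), lamc1 (357), mmp2 (351), col10a1a (300.1), COL6A6 (252) and mmp14b (241). CPM are not divided by transcript length, so this list gives read shares and does not rank the genes by number of transcripts. The metalloproteinases mmp20a and mmp21 had too few counts to be tested.

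The comparison of the second with the first collection asked how far the 2 sets of fish differed at the same time of day. For it, first-collection ranges and medians of matrix genes and marker sums are from the 8 libraries at the shared time points. More reads fell on matrix genes in the second collection. The 81 genes together took 5629 to 10637 CPM in the 8 libraries of the first collection at the shared time points, with a median of 7344, and 11245 to 14790 CPM in the 8 libraries of the second collection, with a median of 13097. The ranges did not overlap. The type I collagen chain col1a2 made up 4.14% to 33.4% of this sum in the first collection and 25.2% to 43.6% in the second collection. Without col1a2 the sums were 5396 to 7088 CPM and 8218 to 8966 CPM, which did not overlap either.

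By edgeR's quasi-likelihood test with time of day in the model, 40 of the 79 tested genes were higher in the second collection and 6 were lower at an adjusted p under 0.05, a share of 50.6% higher. Of all 18935 tested genes, 23.4% were higher and 22.2% lower, so that the background of change between the collections was itself large. Of the 46 matrix genes called, 7 lost the call when some single library was left out. The median log2 fold change was 0.43 over the 79 genes and 0.01 over all tested genes. The 8 libraries of the second collection lay wholly above the 8 first-collection libraries of the shared time points for 9 genes, and for no gene wholly below. Over all tested genes these shares were 4.81% and 5.36%. Mean CPM was higher in the second collection at all 4 time points for 40 of the 81 genes and at none for 9. The same count was not made over all genes, so it does not set the matrix genes apart.

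**Figure D1:**
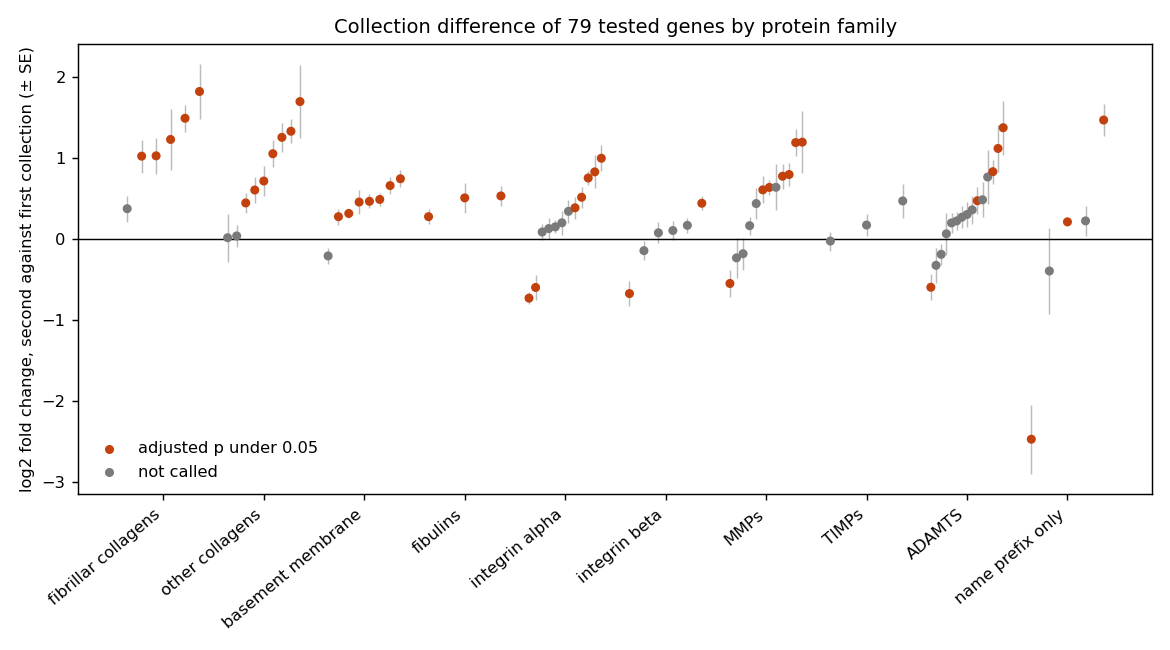
Log2 fold change of the second against the first collection (vertical axis, points with standard errors) for the 79 tested genes, grouped by protein family along the horizontal axis; orange points passed the test. All 6 fibrillar collagens lie above 0, whereas ITGB1BP2 is the lowest point at -2.48.

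The fibrillar collagens gave the largest median difference of the families. Among the 6 fibrillar collagens 5 were higher in the second collection and none was lower, with a median log2 fold change of 1.12. The share higher was 83.3%, against 23.4% of all tested genes. The gene col1a2 encodes the alpha 2 chain of type I collagen, the main protein of dermal fibres. Its CPM ranged from 233 to 3549 in the first collection, with a median of 1226, and from 2834 to 6445 in the second collection, with a median of 4592. The lowest first-collection value came from 1 of the fish at 2 am, whose partner had 2102 CPM, and the highest from a fish at 8 pm. The ranges overlapped, but the fitted level was 3.53-fold higher in the second collection (log2 1.82 ± 0.33 SE, adjusted p = 0.000556 by edgeR).

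Type V collagen starts the assembly of type I fibres. Its chain col5a1 had 66.9 to 260 CPM in the first collection (median 138) and 299.8 to 477 CPM in the second collection (median 375), with no overlap. It was 2.80-fold higher (adjusted p = 1.03e-05 by edgeR). The chains col11a1a and col11a2, of a collagen of cartilage and of thin fibres, were each 2.03-fold higher with overlapping ranges. The type II chain col2a1a, at a median of 0.366 CPM in the second collection, also passed the test. For col5a3a the adjusted p was 0.0699.

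Of the other collagens 7 of 9 were higher and none was lower, a share of 77.8% higher against 23.4% of all tested genes. Type VI collagen forms beaded filaments around cells. Its chain col6a1 had 218 to 565 CPM in the first collection (median 364) and 840 to 1004 CPM in the second collection (median 945), a 2.51-fold difference (adjusted p = 1.12e-05 by edgeR). Its relative COL6A6 had 103 to 291 CPM and 356 to 416 CPM, with medians of 205 and 391 and a 2.07-fold difference. Neither gene had overlapping libraries. The second-collection fish spanned a narrow range for both. The fibre-associated type XIV chain col14a1a was low, with a median of 2.17 CPM in the first collection and of 4.84 CPM in the second. The lowest second-collection fish, with 3.87 CPM, lay above every first-collection fish at the shared time points. It was 2.38-fold higher (adjusted p = 6.57e-05 by edgeR). The type X chain col10a1a, in mammals a collagen of hypertrophic cartilage, was 1.52-fold higher with overlap. COL26A1 and col19a1 had log2 fold changes of 0.03 and 0.01 and did not pass the test.

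**Figure D2:**
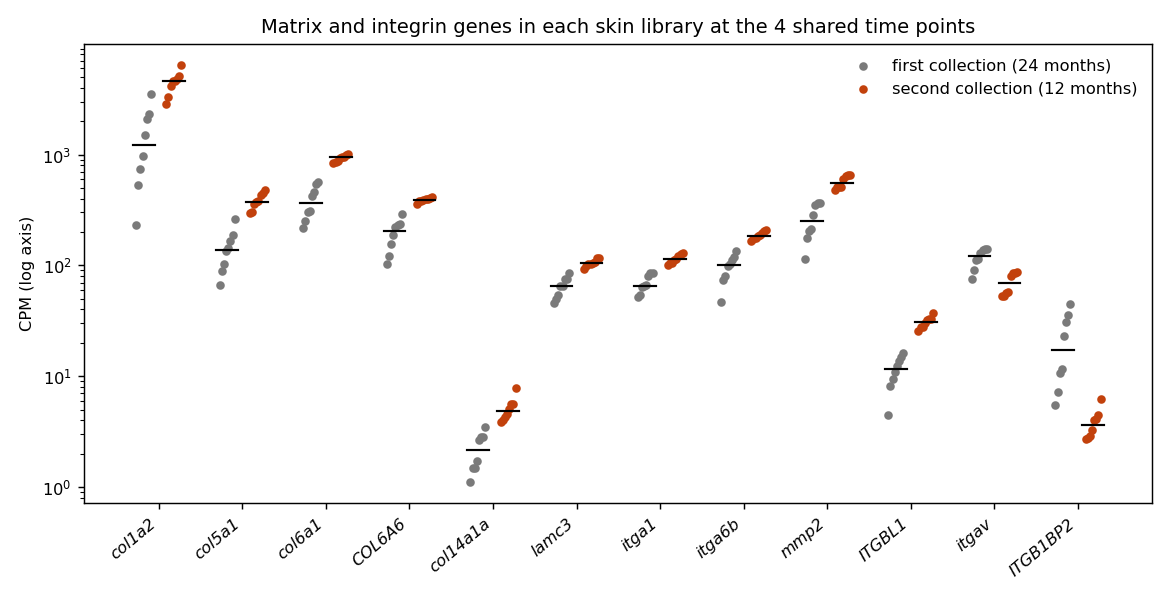
CPM on a log axis for 12 genes in each of the 8 libraries of the first collection (grey) and the 8 of the second collection (orange) at the shared time points; black bars are medians. From col5a1 to ITGBL1 every orange point lies above every grey point of the same gene, whereas for col1a2, itgav and ITGB1BP2 the ranges overlap.

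The basement membrane genes differed less. Among 8 genes 7 were higher in the second collection and none was lower, with a median log2 fold change of 0.46. The share higher was 87.5%, against 23.4% of all tested genes. The laminin gamma chain lamc1 is part of most laminins. Its CPM ranged from 290 to 392 in the first collection and from 381 to 450 in the second collection, and it was 1.24-fold higher (adjusted p = 0.000804 by edgeR). Another gamma chain, lamc3, had 46.2 to 84.7 CPM and 92.5 to 117 CPM, with no overlap and a 1.67-fold difference. The type IV chain col4a1, present in every basement membrane, had 89.9 to 199.9 CPM and 111 to 218 CPM. Its 1.21-fold difference passed the test at an adjusted p of 0.0337 but at only 9 of 25 settings, and the ranges overlapped. The chains COL4A5 and col4a6 lie next to each other in the RefSeq order of assembly X_maculatus-5.0-male, with no gene between them; in mammals this pair shares a promoter region. They were 1.37-fold (adjusted p = 0.0210) and 1.58-fold (adjusted p = 0.000219 by edgeR) higher. COL4A5 passed the test in 21 of 25 settings and col4a6 in all 25. The beta chain lamb2 was the exception, with a log2 fold change of -0.21 that missed the threshold (adjusted p = 0.0795), whereas its relative lamb2l was 1.40-fold higher.

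The 3 fibulins, which bind elastic fibres and basement membranes, were all higher, by 1.21-fold (fbln5), 1.42-fold (fbln7) and 1.44-fold (FBLN1). Of these, only FBLN1 passed the test in all 25 settings.

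Integrin receptors moved in both directions. Among 12 alpha chains 5 were higher and 2 lower in the second collection, a share called of 58.3% against 45.6% of all tested genes. The collagen receptor chain itga1 had 52.0 to 86.0 CPM in the first collection (median 65.7) and 100.2 to 130 CPM in the second collection (median 113), a 1.68-fold difference (adjusted p = 2.02e-05 by edgeR). The laminin receptor chain itga6b had 46.6 to 134 CPM and 166 to 209 CPM, a 1.99-fold difference. Both were without overlap. Its copy itga6a, far lower in CPM, was 1.77-fold higher with overlap.

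The alpha V chain itgav, which binds fibronectin and vitronectin, went the other way. It had 74.7 to 142 CPM in the first collection (median 121) and 53.1 to 87.0 CPM in the second collection (median 69.0). It was lower in the second collection at all 4 time points and fell by 0.73 on the log2 scale (adjusted p = 4.14e-06 by edgeR). With all 24 libraries in the fit, which brings in the fish with 2.95 CPM, the adjusted p was 0.103. A partner of alpha V in epithelium is the beta 6 chain. Its gene itgb6 had 51.5 to 124 CPM in the first collection and 35.2 to 76.2 CPM in the second collection and fell by 0.68 on the log2 scale (adjusted p = 0.00294 by edgeR). The platelet chain itga2b fell by 0.60.

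Of the 6 beta chains, itgb6 was lower and itgb1a higher, a share called of 33.3% against 45.6% of all tested genes. The beta 1 chain pairs with most collagen and laminin receptors. The CPM of itgb1a was 92.2 to 163 in the first collection and 152 to 208 in the second collection, a 1.35-fold difference (adjusted p = 0.000774 by edgeR). The beta 4 chain, which anchors the epidermis through hemidesmosomes, did not pass the test. The CPM of itgb4 was 1067 to 1892 in the first collection (median 1373) and 1088 to 1924 in the second collection (median 1580), nearly the same range, and the adjusted p was 0.163.

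Among the proteases 6 of 12 metalloproteinases were higher and 1 was lower, a share called of 58.3% against 45.6% of all tested genes. The gelatinase mmp2 had 114 to 367 CPM in the first collection (median 249) and 477 to 660 CPM in the second collection (median 556), with no overlap and a 2.28-fold difference (adjusted p = 6.47e-05 by edgeR). The membrane enzyme mmp14b, whose mammalian counterpart activates the MMP2 protein, had 145 to 355 CPM and 233 to 440 CPM and was 1.55-fold higher (adjusted p = 0.000122 by edgeR). The other gelatinase, mmp9, is abundant in neutrophils and wound epithelium. At the shared time points it had medians of 122 CPM in the first and 130 CPM in the second collection. There mmp9 did not pass the test (adjusted p = 0.470 by edgeR). At time points missing from the second collection, single first-collection fish reached 806 and 598 CPM, and the rest had 99.2 to 241 CPM. Second-collection fish had 84.1 to 210 CPM. The low gene mmp19 fell by 0.55 on the log2 scale, a call that was lost with all 24 libraries or without a time term (adjusted p = 0.324 without it).

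None of the 3 inhibitors passed the test. TIMP3, the inhibitor that stays bound to the matrix, had a log2 fold change of 0.17 (adjusted p = 0.334), timp2b of -0.03 (adjusted p = 0.857) and timp4.3 of 0.47 (adjusted p = 0.0762). Among the 15 ADAMTS proteases 4 were higher and 1 was lower, and the 26.7% higher was near the 23.4% of all tested genes. The largest difference was that of adamts10, which in mammals acts on fibrillin microfibrils, at 2.35 to 13.9 CPM in the first collection and 12.1 to 30.7 CPM in the second collection. It was 2.59-fold higher in the fit over the 4 shared time points. The ratio of mean CPM was 4.39 at 8 am, 3.63 at 2 pm and 2.57 at 2 am, but 0.976 at 8 pm. The procollagen-trimming enzymes adamts3 and adamts14 did not move together, with log2 fold changes of -0.60 (adjusted p = 0.00704) and 0.19 (adjusted p = 0.211 by edgeR).

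Of the genes that share only a name prefix, ITGBL1 had 4.47 to 16.3 CPM in the first collection and 25.7 to 36.9 CPM in the second collection, a 2.76-fold difference without overlap. ITGB1BP2 encodes melusin, a protein of skeletal and heart muscle. It had 5.54 to 45.2 CPM in the first collection and 2.74 to 6.16 CPM in the second collection and fell by 2.48 on the log2 scale (adjusted p = 0.000341 by edgeR), the largest fall among the 79 genes. The 10 muscle markers summed to 5723 to 27613 CPM in the first collection and to 4949 to 10041 CPM in the second collection, and 7 of the 10 were lower in the second collection. The muscle markers thus moved with ITGB1BP2, and the part of muscle was not tested. Without the library of each collection with the highest muscle sum, the adjusted p of ITGB1BP2 was 0.00241, and 33 genes were higher and 6 lower. From the first collection this removed only the D fish with 27613 CPM. The other D fish at the shared time points stayed, with muscle sums of 13566 to 24140 CPM and 23.3 to 45.2 CPM of ITGB1BP2. Their C partners had muscle sums of 5723 to 11182 CPM and 5.54 to 10.7 CPM of ITGB1BP2. The difference without all D fish was not tested.

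Most called genes in other matrix lists were also higher in the second collection. In a list of matrix glycoproteins and proteoglycans, 22 of 37 tested genes were higher in the second collection and none was lower. They included the collagen-binding proteoglycan lum (463 to 1378 CPM in the first collection and 1963 to 2328 CPM in the second collection) and the collagen-binding glycoprotein sparc (259 to 806 CPM and 858 to 1123 CPM), both without overlap. Fibronectin, fn1a, and perlecan, hspg2, were not called. Of 21 enzymes that modify or cross-link collagen 10 were higher and 1 was lower. The share called was 59.5% for the first list and 52.4% for these enzymes, against 45.6% of all tested genes. The cross-linking enzymes loxa and loxl2b were higher, at 21.3 to 54.6 CPM against 55.3 to 69.0 CPM for loxa, whereas the collagen prolyl isomerase ppib was lower by a log2 fold change of -0.30. Of 14 focal adhesion proteins 5 were higher and 1 was lower, and the share called (42.9%) was near that of all tested genes (45.6%). In a list of unnamed genes whose spotted gar counterparts belong to these families, 4 of 7 tested were higher and 2 were lower. Of these 7 genes, 1 lay wholly above the first collection and 2 wholly below it.

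The skin held markers of several cell types, none of which was at 0 in all libraries. First-collection sums here are from the shared time points unless stated. The 7 fibroblast markers summed to 1348 to 2418 CPM in the first collection and to 3061 to 3491 CPM in the second collection, without overlap. This sum was carried by lum and dcn, themselves matrix proteoglycans. Of the 7 markers, 4 were higher in the second collection (lum, dcn, dpt and fap), and 3 of the 7, namely lum, dcn and dpt, also belong to the list of matrix glycoproteins. The other 3, the receptor pdgfra and the transcription factors prrx1b and twist2, had log2 fold changes of 0.06, 0.15 and -0.03 and did not pass the test. The part of fibroblast number in the collagen differences was not tested. The 5 leukocyte markers summed to 1720 to 4063 CPM and 3503 to 4726 CPM, with 4 higher in the second collection. The 4 keratinocyte markers summed to 18076 to 41756 CPM and 36976 to 43172 CPM, with 1 higher and 2 lower. Of the 4 bone and scale cell markers 3 were higher (phex, runx2b and sost) and none was lower, with sums of 107 to 164 CPM and 133 to 194 CPM. Scale-forming cells also make type I and type X collagen, and their part in the differences of col1a2 and col10a1a was not tested. Of the 4 endothelial markers 2 were lower (cdh5 and kdrl), and of the 3 red blood cell genes 2 were lower. The red blood cell sums were 207 to 377 CPM in the first collection at the shared time points and 41.8 to 245 CPM in the second. At the other first-collection time points they were 544 to 3668 CPM.

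The next comparison asked which genes followed a 24 h course. It fitted a sine and a cosine of 24 h to the counts, in each collection alone and in all 24 libraries with a collection term. In the second collection, 36 of the 79 tested genes were called (45.6%), and 37.9% of all tested genes were. Of the 76 genes tested in the first collection 1 was called, against 1.56% of all tested genes. At an unadjusted p under 0.05 it was 17 of the 76, and 21.1% of all tested genes. With both collections together 19 of 79 genes were called (24.1%), against 15.8% of all tested genes. DESeq2 called 7 of the 76 in the first collection, and 9.19% of all tested genes. When both 5 pm libraries were left out, edgeR called 8 of the 76 and 16.3% of all tested genes. The counts among the 76 were thus near or below the share of all genes. Of the 36 calls in the second collection 12 were lost when some single library was left out, as were 10 of the 19 calls with both collections. The second-collection fish differed less from each other, and the 2 collections were not sampled alike. The counts of calls therefore do not compare the strength of daily change between collections.

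**Figure D3:**
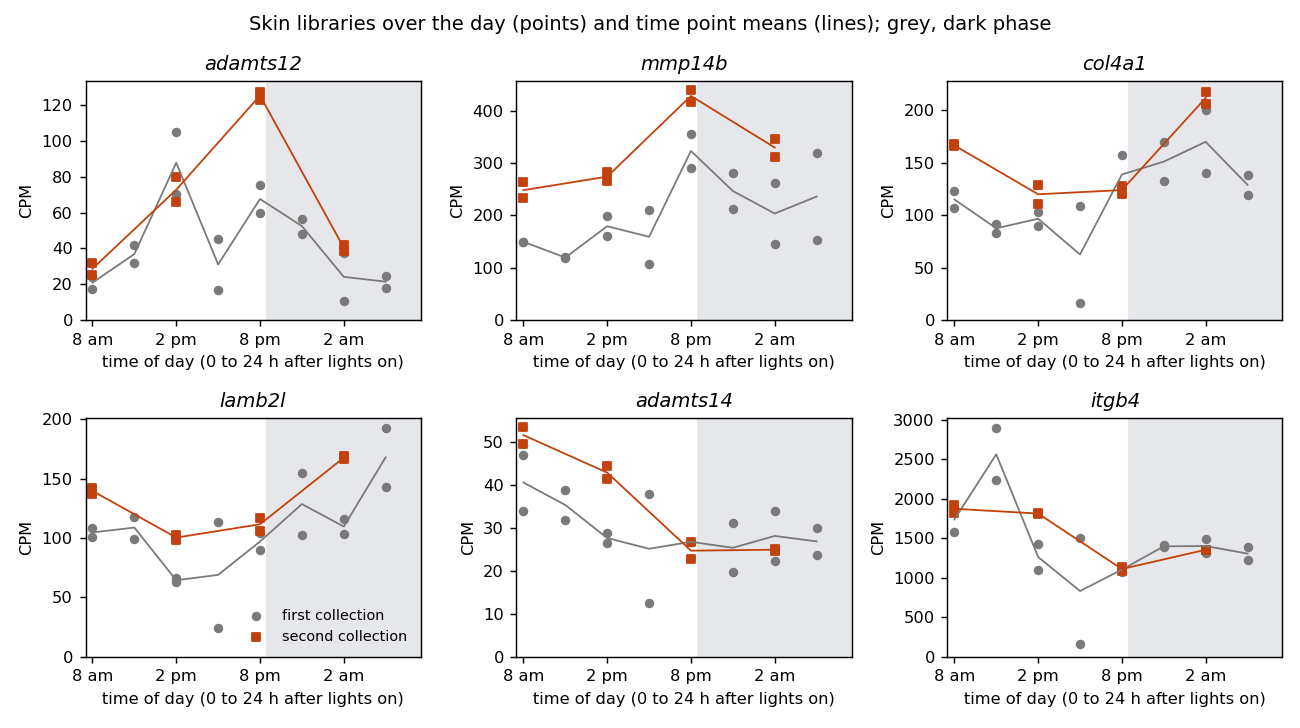
CPM (vertical axes, from 0) against time of day for 6 genes in the 16 libraries of the first collection (grey circles) and the 8 of the second collection (orange squares); lines join the mean of the 2 fish at each time point, and the grey area is the dark phase. In the second collection adamts12 and mmp14b are highest at 8 pm, col4a1 and lamb2l at 2 am and adamts14 and itgb4 at 8 am; the low grey points at 5 pm belong to the library that stood apart.

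Protease genes were among those with large daily changes. The low gene adamtsl2, without protease activity and at a mean of 0.425 CPM, was also called with both collections, a call lost when some library was left out. The protease adamts12, which in mammals cuts the cartilage protein COMP, was lowest around lights on and highest before or at lights off. In the second collection the pairs of fish had 32.0 and 25.4 CPM at 8 am, 79.7 and 65.9 at 2 pm, 123 and 128 at 8 pm, and 42.2 and 38.7 at 2 am. No 2 time points overlapped. First-collection fish had 17.5 and 24.3 CPM at 8 am, 105 and 70.5 at 2 pm, 59.5 and 75.7 at 8 pm, and 37.7 and 10.6 at 2 am. With both collections the fitted course peaked at Zt 10.1 with a peak 3.91-fold above the trough (adjusted p = 0.000524 by edgeR), and all 32 settings kept the call. The metalloproteinase mmp19, known from mammalian epidermis and vessels, took a like course at low levels, with a fitted peak at Zt 11.0 and a 4.11-fold range (adjusted p = 0.00135 by edgeR).

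The aggrecan-cutting protease ADAMTS5 had its highest mean at 2 am in both collections. It had 127 and 113 CPM at 2 am of the second collection and 62.1 to 95.6 CPM at the other 3 time points. The first-collection pair at 2 am had 153 and 168 CPM and the pair at 2 pm had 48.0 and 59.1 CPM. It was the 1 gene called in the first collection alone (peak Zt 17.9, 2.31-fold, adjusted p = 0.0491 by edgeR), in 12 of 26 settings, and was called in both collections together (adjusted p = 0.00424). In the second collection its peak was at Zt 20.3 (adjusted p = 0.0358), a call lost without the fish lettered A at 2 am (adjusted p = 0.107 by edgeR). Its neighbour adamts1, with no gene between them in the RefSeq order, peaked at Zt 19.2 in the second collection with a 1.63-fold range (adjusted p = 0.00320 by edgeR).

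The procollagen-trimming adamts14 was high in the first part of the day. Its CPM in the second collection was 53.5 and 49.5 at 8 am, 44.3 and 41.3 at 2 pm, 26.6 and 22.7 at 8 pm, and 24.7 and 25.1 at 2 am. The early pairs lay wholly above the late pairs. The first-collection fish at 8 am had 47.0 and 34.0 CPM and those at 8 pm had 26.7 and 26.7 CPM. The fitted peak of both collections was at Zt 2.66 with a 1.81-fold range (adjusted p = 0.00615 by edgeR). The proteoglycan-cutting adamts15b had its peak at Zt 0.99 and its copy adamts15a at Zt 9.95 (adjusted p = 0.0165 and 0.0293 by edgeR). The difference between these copies was not tested.

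The genes called in the second collection fell into groups by time that partly followed the families. Of the 79 tested, 15 were called with a fitted peak within 3 h of 8 am, 1 around 2 pm, 11 around 8 pm and 9 around 2 am. Of all tested genes 12.1%, 3.99%, 17.2% and 4.66% were called with these peaks. Of the 5 basement membrane genes called, 4 peaked around 2 am: lamb2l at Zt 20.2, LAMA4 at Zt 20.4, col4a1 at Zt 20.5 and lamb2 at Zt 21.3. The fifth, col4a6, peaked at Zt 1.67. The calls of LAMA4 and col4a6 were among the 12 lost with some library left out.

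The type IV chain col4a1 had 206 and 218 CPM at 2 am of the second collection, 167 and 165 at 8 am, and 111 to 129 at the other 2 time points, a 1.80-fold fitted range (adjusted p = 0.00249 by edgeR). The laminin beta chain lamb2l had 166 and 169 CPM at 2 am, 137 and 142 at 8 am, and 98.0 to 117 at 2 pm and 8 pm. Both genes were thus higher in the night and at lights on than in the later day. In the first collection lamb2l was lowest at 2 pm, with 66.3 and 62.6 CPM, apart from the fish with 24.3 CPM at 5 pm, and highest at 5 am, with 143 and 193 CPM. With both collections its peak was at Zt 20.5 (1.84-fold, adjusted p = 0.00818 by edgeR).

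Both fibrillar collagens and 4 of the 7 metalloproteinases called in the second collection peaked around lights off. Such a peak was common, at 45.2% of all 7042 genes called and 11 of the 36 matrix genes called (30.6%). It is therefore not particular to these families. The fitted peaks were at Zt 10.3 for col5a1, 10.6 for col1a2, 11.8 for mmp19, 13.3 for mmp14b, 14.2 for mmp2 and 15.0 for mmp11a, a relative of stromelysin. The other 3 metalloproteinases peaked near lights on, at Zt 22.1 for mmp9, 23.2 for mmp24 and 23.6 for mmp28. Second-collection fish had 440 and 416 CPM of mmp14b at 8 pm, 347 and 312 at 2 am, 283 and 265 at 2 pm, and 264 and 233 at 8 am. In the first collection its highest pair was also at 8 pm, with 291 and 355 CPM, and its lowest at 11 am, with 119 and 120 CPM. With both collections the peak was at Zt 14.4 (1.79-fold, adjusted p = 0.00677 by edgeR), a call lost without a collection term (adjusted p = 0.0860). The gelatinase mmp2 had a 1.37-fold range in the second collection (adjusted p = 0.00314) and was not called with both collections (adjusted p = 0.0559 by edgeR). For col1a2 the second-collection range was 1.74-fold (adjusted p = 0.0302), and with both collections the adjusted p was 0.113. Without the fish lettered B at 8 pm of the second collection, neither col1a2 (adjusted p = 0.139) nor col5a1 (adjusted p = 0.0846 by edgeR) was called.

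Integrin chains peaked at several times. The CPM of itgb4 in the second collection was 1819 and 1924 at 8 am, 1818 and 1804 at 2 pm, 1133 and 1088 at 8 pm, and 1351 and 1356 at 2 am, with a fitted peak at Zt 2.78 (1.87-fold, adjusted p = 0.000759 by edgeR). In these fish it was high at 8 am and 2 pm and lowest before lights off. In the first collection its highest pair was at 11 am, with 2235 and 2887 CPM, a time point that the second collection lacked, and its mean at 2 pm (1262 CPM) was below those at 11 pm (1397 CPM) and 2 am (1401 CPM). The alpha 6 chain is the partner of beta 4. Its copy itga6a peaked at Zt 10.8 in the second collection, with a 2.08-fold range and an adjusted p of 0.0115. The more abundant copy itga6b, with a fitted range of 1.14-fold, was not called (adjusted p = 0.296 by edgeR).

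The chain itgav had 87.0 and 84.7 CPM at 8 am of the second collection, 80.2 and 85.3 at 2 am, and 53.1 to 57.7 at 2 pm and 8 pm (peak Zt 21.9, 1.74-fold, adjusted p = 0.000736 by edgeR). The laminin receptor chain itga3b had 45.6 and 45.8 CPM at 8 pm and 26.7 and 23.3 at 8 am (1.86-fold, adjusted p = 0.000516 by edgeR). In the first-collection libraries itga3b showed a fitted range of 1.12-fold (adjusted p = 0.867). For itgb1a the second-collection call (adjusted p = 0.0379) was lost when fish with the same replicate letter were treated as a block (adjusted p = 0.0523), as it was for col8a2, itgb6 and mmp24, whereas fbln7 was gained.

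Other genes peaked near lights on. The matrix-bound inhibitor TIMP3 had 101 and 78.5 CPM at 8 am of the second collection and 38.4 and 35.0 CPM at 8 pm (2.42-fold, adjusted p = 0.00130 by edgeR). The gene adamts10 had 29.3 and 30.7 CPM at 8 am and 12.1 and 12.2 CPM at 8 pm (2.45-fold, adjusted p = 0.000593). In the first collection its highest pair, 13.9 and 11.0 CPM, was at 8 pm, where the second collection had its lowest, and the first-collection course was not called (adjusted p = 0.737).

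The gene col14a1a was the only one of the 81 that the study listed as cyclic in skin. The methods of the study do not state which skin libraries this choice used. Only the first collection has all 8 time points, so the first-collection course of col14a1a is given without weight. This gene was also the only one of the 81 whose 8 mean CPM of the first collection rose and fell once. So did 5.51% of the 16963 expressed genes. These were 935 genes, the same number that the study listed as cyclic in skin, though the 2 lists were not compared. This property is therefore not taken as separate from that choice. The rank test on these means called none of the 81 genes, and 1.31% of all expressed genes. Whether that choice also used second-collection libraries is not stated. In the second collection col14a1a had 7.83 and 5.57 CPM at 8 am, 5.64 and 5.10 at 2 am, 4.59 and 4.06 at 2 pm, and 3.87 and 4.28 at 8 pm (peak Zt 23.4, 1.67-fold, adjusted p = 0.0362 by edgeR). This call held in 8 of 15 settings and was lost without the fish with 7.83 CPM (adjusted p = 0.115).

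The 2 collections share no library, so their fitted peak times could be set beside each other. Of the 36 genes called in the second collection, 27 (75%) had a first-collection peak within 3 h, with a median difference of 1.75 h. Among all 7001 genes called in the second collection and also fitted in the first collection, 41.5% lay within 3 h, with a median of 3.57 h. When both 5 pm libraries of the first collection were left out, 27 of the 36 lay within 3 h, with a median of 1.28 h, and so did 48.8% of all such genes, with a median of 3.06 h. Of these 27, 25 were the same genes, while col4a1 and LAMA4 left the window and itga3b and mmp24 entered it. This is a description, because the genes share the same fish. The 9 outside the window included col8a2 (11.9 h), mmp28 (9.57 h), itga3b (8.73 h, and 0.638 h without the 5 pm libraries) and adamts10 (7.73 h).

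**Figure D4:**
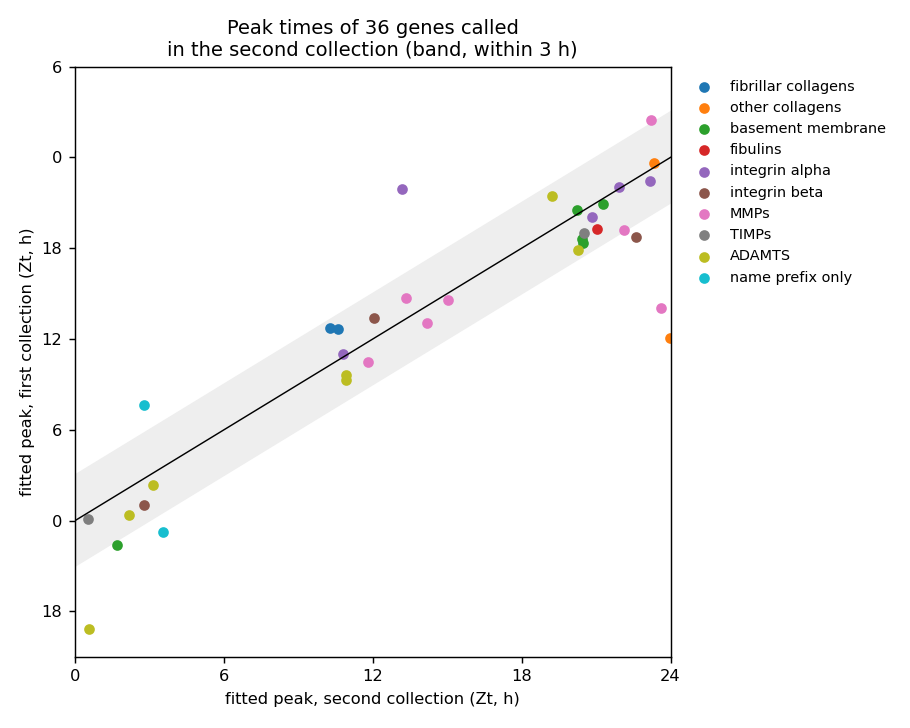
Fitted peak time in Zt hours in the second-collection libraries (horizontal axis) and the first-collection libraries (vertical axis, continued past midnight so that each point is at its shortest distance from the line) for the 36 genes called in the second collection, coloured by family; the grey band holds differences of up to 3 h. It contains 27 points, with the fibrillar collagens and several metalloproteinases near Zt 10 to 15 and basement membrane genes near Zt 18 to 21.

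Whether the daily course differed between collections was tested by an interaction of collection with the sine and cosine. None of the 79 genes passed the edgeR test, as for all tested genes (0%), and DESeq2 called 0 of the 79 but 2.17% of all tested genes. At an unadjusted p under 0.05, 5 genes stood out (itga8, mmp28, itga3b, itga2b and mmp17b), that is 5 of 79, while 12.4% of all tested genes did. The lowest was that of itga8, a chain of a nephronectin receptor. It had 80.6 and 101 CPM at 8 am and 42.6 and 45.2 CPM at 8 pm of the second collection, but 61.3 and 49.9 CPM and 44.9 and 66.5 CPM at these times in the first collection (adjusted p = 0.197 for the interaction).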

How the data were processed

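The authors mapped filtered paired-end reads with TopHat2 and deposited raw counts per gene made with featureCounts on Ensembl gene models. Program versions and the strand setting were not given in the sources used here. The labels give fish ages of 24 and 12 months by library name, whereas the methods of the study name a single age. CPM were computed from library totals. Tests used edgeR 4.0.16 in R 4.3.3 (TMM, filterByExpr, quasi-likelihood, Benjamini-Hochberg at 0.05). The test between collections used the 16 libraries of the 4 shared time points with time as a factor. DESeq2 1.42.0, other scalings, no filter, other models, replicate blocks and leaving out each library were alternatives. The scripts were tested on simulated data. Gene symbols came from the supplementary tables of the study, and 6 genes rest on identifiers whose lost zeros were restored. Gene families sharing near-identical copies may split reads, and overlapping antisense reads cannot be separated. Samples were taken as separate fish because the methods of the study state that fish were killed and dissected at each time point. The labels alone do not show this, since letters inside the second-collection library names recur at several times of day. Deviations of fish with the same letter at different times correlated in the second collection at 0.107 to 0.234 in all 12 pairs. Deviations within a pair of fish mirror each other, so each of these values occurs for both letters. The letters inside the library names did not match the replicate letters at every time point. Whether replicate letters pair samples there was therefore not settled, and the main daily test used no block. The members and lists were chosen with earlier results of these data known. Named genes were the largest non-overlapping differences between collections, the lowest p-values of the daily tests, the 8 highest mean CPM and 16 genes of main matrix roles; others that complete a family, such as lamc3 and ITGB1BP2, were named after their values were seen.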

Additional observations from a re-analysis of the deposited data

Results flagged for a closer look

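Single libraries were checked against the other 7 of their collection for 22 genes, in 44 sets of 8 libraries, of which chance flags about 1 in 20. In 2 sets the highest library stood far from the rest. For col14a1a it was the second-collection fish lettered A at 8 am, with 7.83 CPM. For lamc1 it was the second-collection fish lettered A at 8 pm, with 450 CPM. Both sets span 4 times of day. Without that fish the collection difference of each gene kept its direction and its call.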

How the results depend on the processing

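The collection difference gave 31 to 41 of the matrix genes higher under the alternatives other than leaving out single libraries, and 35 to 44 with each of the 16 libraries left out in turn. The number lower was 3 with all 24 libraries and 8 time points, 5 or 6 under the other alternatives, and 6 to 7 with libraries left out. Over all genes the calls in either direction ran from 7724 to 9177 with libraries left out, against 8642 with none left out. For timp2b, which was not called, the log2 fold change ran from -0.105 to 0.0359 with libraries left out, and was above 0 without the first-collection fish C at 2 pm, D at 8 pm or D at 2 am. The daily test of the first collection called 7 matrix genes with DESeq2, 0 without a filter, 0 with an 8-level time factor, 0 by the rank test, 8 without both 5 pm libraries, 2 with a 4-level time factor at the shared time points, and 0 to 5 with each library left out. These last alternatives at 5 pm and the shared time points were chosen after seeing the data. Over all genes, leaving out each library gave 131 to 1187 calls in the first collection. With replicate letters as a block, 0 of these genes and 177 of all genes were called in the first collection, against 288 without it. Correlations of fish with the same letter there ran from -0.225 to 0.296, so the letters showed no common pairing. At the shared time points the fish lettered D nevertheless had the higher muscle sum of each pair. In the second collection the block left 33 matrix genes and 6592 of all genes called, against 36 and 7042 without it. Leaving out 1 library there gave 25 to 42 matrix genes and 4505 to 6984 of all genes. With both collections it gave 13 to 26 and 2099 to 5063, and dropping the collection term left 8 and 1629. The test of the daily course by collection called 0 of the matrix genes in every alternative run, whereas over all genes DESeq2 called 422 and edgeR at the 4 shared time points 18. The test between collections used no block. At the shared time points the letters C and D of the first collection met A and B of the second collection. A letter term within each collection was not fitted. Depth limits genes near 1 CPM, such as mmp17b and col9a2. With 2 fish per time point, and date, age and preparation joined, the cause of these changes was not tested.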
